A study of Mus musculus with 4 samples.

Results

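Interferon-induced genes were examined across the cell classes of mouse pancreatic tumors after targeting of the stroma. They comprise 41 genes of the 32285 in the deposited count tables, chosen by gene symbol, and all 41 symbols were found in all 4 libraries. By what is known of them they fall into 4 groups: 15 GTPases of the guanylate-binding protein (Gbp) and immunity-related GTPase (Irg) families, 8 genes named for type I interferon (Ifit1, Ifit2, Ifit3, Ifit3b, Oas1a, Oas2, Oasl2 and Isg15), 13 other antiviral genes, and 5 regulators (Stat2, Irf1, Irf7, Irf9 and Socs1). The GTPases are Gbp2 to Gbp9, Iigp1, Igtp, Irgm1, Irgm2, Tgtp1, Tgtp2 and Ifi47.

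All tumors came from KPC cells (mouse pancreatic ductal adenocarcinoma cells, line FC1242) grafted into the pancreas of male C57BL/6 mice on a high-fat diet (24 weeks). In the first model the hosts were Pdgfrb-TK mice, in which the promoter of the pericyte and fibroblast receptor Pdgfrb drives a viral thymidine kinase, and they received ganciclovir at 50 mg/kg (Pdgfrb-TK/GCV) or PBS (Pdgfrb-TK/PBS) every other day for 25 days. In the second model the hosts were WT mice given either PBS (WT/PBS) or D-CAN at 30 mg/kg on the same schedule. D-CAN is a hunter-killer peptide that homes to adipose stromal cells and carries an apoptosis-inducing sequence. Ganciclovir is toxic to dividing cells that make the kinase, so it can act on other proliferating Pdgfrb-positive cells, such as pericytes, and not on fibroblasts alone. The labels give an age of 7 months while the methods give 12 months at grafting, and the extraction text in the labels describes nuclei of another tissue. Tumor suspensions were pooled by treatment, so each condition is 1 library without replicates, and in each comparison the treatment and the library cannot be told apart. For that reason no test was made, and all intervals cover counting error only.

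Interferons reach a cell through separate receptors. IFN-gamma, made chiefly by T cells and NK cells, binds Ifngr1 and Ifngr2 and acts through a short palindrome called the gamma-activated sequence (GAS). Type I interferons bind Ifnar1 and Ifnar2 and yield a complex with STAT2 and IRF9 that binds the interferon-stimulated response element (ISRE). The Gbp and Irg GTPases are typical of the response to IFN-gamma and coat the vacuoles of intracellular microbes, whereas Ifit proteins bind foreign RNA, Oas proteins sense double-stranded RNA, and Isg15 is a ubiquitin-like modifier, all typical of type I interferon. The division is a matter of degree, because many of these genes respond to either ligand and IRF1, itself induced by IFN-gamma, also binds ISRE-like letters.

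The genes lie in clusters. Of the 41 genes, 10 lie on mouse chromosome 11, among them Irgm1, Tgtp1, Tgtp2, Ifi47, Igtp, Irgm2 and Irf1. Gbp2, Gbp3, Gbp5 and Gbp7 lie on chromosome 3, Gbp4, Gbp6, Gbp8 and Gbp9 on chromosome 5, and the 4 Ifit genes on chromosome 19. Neighboring copies are close in sequence, so the split of reads between Tgtp1 and Tgtp2, between Ifit3 and Ifit3b and among the Gbp genes is uncertain. In the annotation of GRCm38 (mm10), Igtp at chr11:58199556-58207591 lies within the span of Irgm2 at chr11:58199618-58222782 for nearly its whole length, so their reads may also be shared.

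To show the letters that the GAS and ISRE terms refer to, the 250 bases before the RefSeq transcription start (GRCm38.p6) were searched on either strand for TTCNNNGAA (GAS) and GAAANNGAAA (ISRE). Such a window was at hand for 31 of the 41 genes. The GAS letters stood in 6 of 10 GTPases, 2 of 7 type I genes and 8.13% of all 27025 genes in the table. The ISRE letters stood in 9 of 10 GTPases, 5 of 7 type I genes and 3.46% of all genes. Both stood in 6 of 10 GTPases, 1 of 7 type I genes and 0.459% of all genes. In Igtp, Irgm2, Tgtp1 and Tgtp2 the GAS match was followed by an ISRE match whose first base lay 11 bases further on, a spacing found in 5 genes of the whole table. No other spacing was counted. Igtp and Irgm2 share most of the letters around the match, and Tgtp1 and Tgtp2 are nearly identical copies, so these are not 4 separate finds. These counts describe letters only and say nothing of binding.

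The following windows, each written in the direction of transcription and ending at the base before the start, show the contrast between a GAS followed by an ISRE (Igtp, Irgm2 and Tgtp2), a GAS alone (Irf1) and ISRE letters alone (Isg15 and Ifit1), with the matches in capitals. They are chr11:58199306-58199555 (plus strand) for Igtp, chr11:58214727-58214976 (plus) for Irgm2, chr11:49064213-49064462 (minus) for Tgtp2, chr11:53769764-53770013 (plus) for Irf1, chr4:156200819-156201068 (minus) for Isg15 and chr19:34640639-34640888 (plus) for Ifit1. In Isg15 3 ISRE matches overlap, and in Ifit1 both matches are on the reverse strand.
Igtp: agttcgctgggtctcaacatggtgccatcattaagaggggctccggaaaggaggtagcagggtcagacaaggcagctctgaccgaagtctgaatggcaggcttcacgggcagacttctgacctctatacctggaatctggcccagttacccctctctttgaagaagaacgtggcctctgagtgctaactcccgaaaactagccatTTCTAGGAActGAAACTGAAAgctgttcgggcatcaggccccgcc
Irgm2: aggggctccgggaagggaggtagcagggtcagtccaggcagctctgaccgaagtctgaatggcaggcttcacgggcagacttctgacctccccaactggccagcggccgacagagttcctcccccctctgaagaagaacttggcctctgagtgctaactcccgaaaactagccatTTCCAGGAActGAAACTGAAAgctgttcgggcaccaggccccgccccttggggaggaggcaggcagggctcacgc
Tgtp2: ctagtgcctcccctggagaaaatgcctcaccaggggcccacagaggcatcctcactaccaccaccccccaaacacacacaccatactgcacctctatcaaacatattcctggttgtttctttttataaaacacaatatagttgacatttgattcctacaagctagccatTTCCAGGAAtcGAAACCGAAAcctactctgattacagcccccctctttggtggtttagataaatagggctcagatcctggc
Irf1: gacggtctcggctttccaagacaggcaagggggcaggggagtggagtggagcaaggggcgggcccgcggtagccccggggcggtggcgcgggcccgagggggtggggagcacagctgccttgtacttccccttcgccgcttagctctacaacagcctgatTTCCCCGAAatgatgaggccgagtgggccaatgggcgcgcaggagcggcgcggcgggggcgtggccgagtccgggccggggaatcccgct
Isg15: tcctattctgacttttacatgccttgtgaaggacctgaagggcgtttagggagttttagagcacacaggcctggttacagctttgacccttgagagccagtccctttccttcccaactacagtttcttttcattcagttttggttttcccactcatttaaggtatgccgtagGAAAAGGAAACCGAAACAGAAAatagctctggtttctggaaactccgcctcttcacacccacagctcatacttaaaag
Ifit1: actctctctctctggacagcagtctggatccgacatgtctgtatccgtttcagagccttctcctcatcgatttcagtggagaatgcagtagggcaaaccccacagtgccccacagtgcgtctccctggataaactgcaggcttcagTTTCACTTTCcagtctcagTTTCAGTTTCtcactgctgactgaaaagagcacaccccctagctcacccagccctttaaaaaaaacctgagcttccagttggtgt

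Each library held 10178 to 12280 cells with at least 200 genes detected, with 84000174 to 155382616 UMIs and a median of 4514 to 7421 UMIs per cell. Cells were put into classes by marker genes, which gave 3079 to 6551 KPC tumor cells per library (keratin-positive cells below a set limit of host markers), 299 to 2032 cancer-associated fibroblasts (CAFs), 528 to 1922 macrophages or monocytes, 229 to 558 neutrophils and 46 to 389 endothelial cells (ECs). All 8 markers of each of these classes were detected in each of them in all 4 libraries, which largely follows from choosing the cells by these markers. The 46 ECs of Pdgfrb-TK/GCV were too few and were not compared. The D-CAN library stood apart in quality, with 29.3% of its cells above 20% mitochondrial UMIs against 4.48% to 18.2% in the others and 32.2% of its cells in no class, so the alternative without such cells is given with the limits. Pairs of libraries shared 26 to 42 cell barcodes, and possible doublets were kept. Levels are UMIs of the gene per 1000000 UMIs of the class (CPM). Where 4 values stand in a row without library names, they are those of Pdgfrb-TK/GCV, then Pdgfrb-TK/PBS, then D-CAN and last WT/PBS. A gene was counted as higher or lower when the ratio of CPM + 1 between the libraries was at least 2 in that direction and the gene had at least 20 UMIs over both.

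To ask how the genes differed between D-CAN and PBS in WT hosts, their levels were compared class by class. The GTPases were higher with D-CAN in all 5 classes, most of all in KPC tumor cells and neutrophils. Their summed level in KPC tumor cells was 471 CPM (95% counting interval 467 to 476) with D-CAN and 14.0 CPM (13.3 to 14.7) with PBS, a ratio of 33.7. In neutrophils the sum was 797 CPM against 42.8 CPM, a ratio of 18.6. In CAFs, macrophages and ECs the ratios of the sums were 4.49, 3.28 and 4.05. The type I genes did not move as a block. Their summed level was 92.2 CPM against 14.9 CPM in KPC tumor cells (ratio 6.20) and 349 CPM against 65.6 CPM in neutrophils (5.32), but 187 CPM against 104 CPM in CAFs (1.79). In macrophages the type I sum was lower with D-CAN, 245 CPM against 314 CPM, and in ECs it was 129.5 CPM against 169.8 CPM. Pdgfrb-TK/PBS lay below D-CAN in this sum, at 128 CPM in macrophages and 66.0 CPM in ECs. The WT/PBS sums rested more on few cells. The 10% of cells richest in type I UMIs for their depth held 78.6% of them in WT/PBS macrophages and 59.5% in D-CAN. In ECs they held 94.1% and 54.2%. After thinning to equal depth, a type I UMI stood in 20.7% of WT/PBS and 27.2% of D-CAN macrophages, and in 7.08% and 16.5% of ECs. UMIs of at least 2 type I genes went the other way, at 7.80% and 5.35% in macrophages and 2.36% and 1.18% in ECs.

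**Figure D1:**
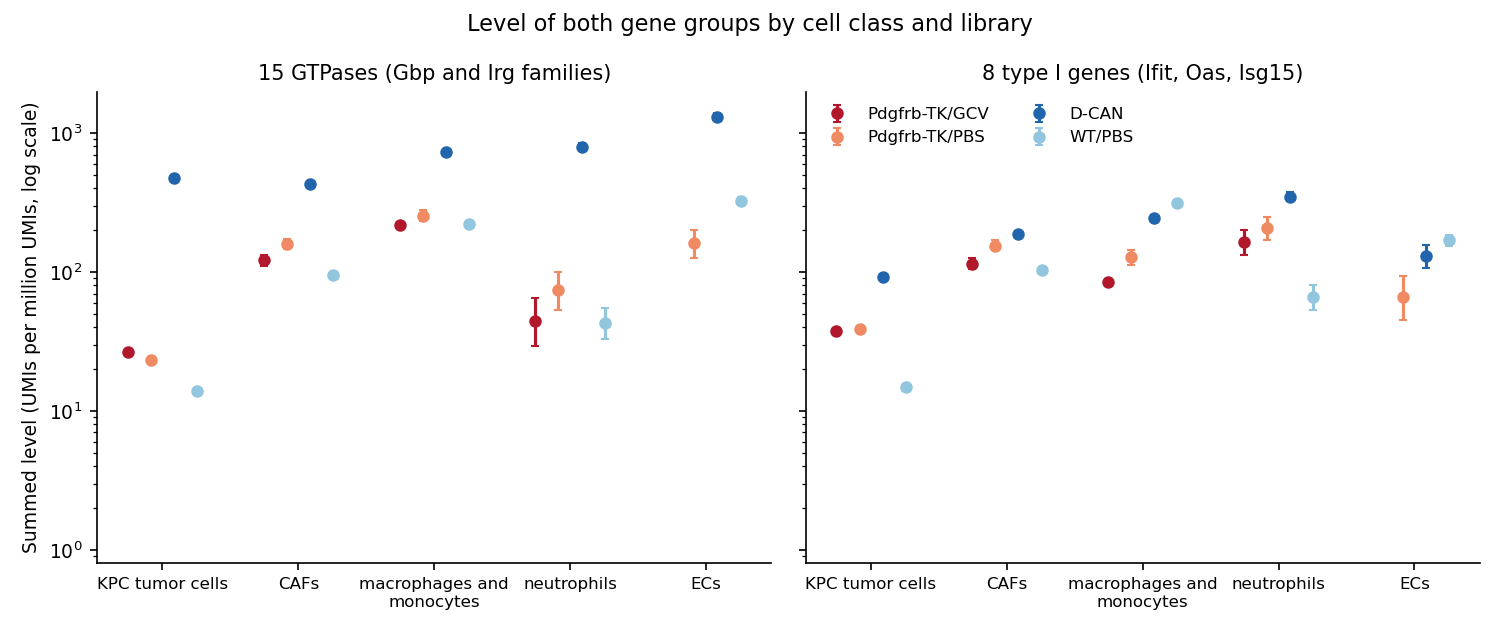
Summed level of the 15 GTPases and of the 8 type I genes (CPM, log axis) in each class and library, with bars for the 95% Poisson counting interval of the single library; ECs of Pdgfrb-TK/GCV are not shown. In KPC tumor cells the GTPase sum with D-CAN (471 CPM) stands far above the other 3 libraries (14.0 to 26.6 CPM), while in macrophages the type I sum is highest in WT/PBS (314 CPM).

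The balance of the GTPases to the type I genes moved with it. UMI counts are not scaled by gene length, so these ratios are read between libraries only. In KPC tumor cells the GTPase sum was 5.11 times the type I sum in D-CAN, 0.941 times in WT/PBS and, in the Pdgfrb-TK model, 0.593 (PBS) and 0.705 (GCV). In neutrophils the ratio was 2.28 in D-CAN and 0.273 to 0.653 in the others. In macrophages WT/PBS was the library that differed, at 0.709 against 1.99 to 2.97 in the others.

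In KPC tumor cells all 15 GTPases were higher with D-CAN and none was lower, with 7.06% of the 18037 genes counted in this class higher and 2.02% lower. Their median log2 ratio was 3.42 (range 1.90 to 6.80), and that of all genes was 0.09. Iigp1, an Irg protein that is loaded onto the vacuoles of parasites, stood at 0.542, 0.384, 141 and 0.272 CPM (the third value is D-CAN). That is 13084 UMIs with D-CAN against 30 with PBS in WT hosts, a 518-fold ratio (counting interval 363 to 768). The other 3 libraries all lay under 1 CPM for Iigp1.

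Gbp2 was at 3.45, 2.29, 92.9 and 2.23 CPM, a 41.7-fold ratio of D-CAN to WT/PBS (36.7 to 47.5). Igtp (also known as Irgm3), one of the regulatory Irg proteins that guard the cell's own membranes, was at 2.65, 2.50, 35.5 and 0.689 CPM, a 51.6-fold ratio (41.1 to 65.7). Gbp7 followed with 1.86, 0.975, 24.2 and 0.326 CPM, or 74.2-fold (53.5 to 106). For each of these genes D-CAN was the only high library. Irgm1, another regulatory Irg protein, had the most UMIs of the GTPases in both PBS libraries and the smallest plain ratio of the group, with 8.77, 10.6, 59.7 and 7.13 CPM and a ratio of 8.37 (7.77 to 9.03). Tgtp1 and Tgtp2, Irg effectors that are nearly identical copies, had 829 and 746 UMIs with D-CAN against 5 and 3 in WT/PBS, which gives ratios of 197 (84.0 to 608) and 295 (101 to 1435). The remaining GTPases ranged from a log2 ratio of 1.90 for Gbp9 to 3.98 for Ifi47.

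Of the 8 type I genes, 6 were higher and none was lower in KPC tumor cells, with a median log2 ratio of 1.43. Isg15 was at 11.4, 5.53, 35.8 and 2.81 CPM, 12.7-fold higher with D-CAN than with PBS (11.3 to 14.4). Oasl2, an Oas relative, was at 4.19, 4.22, 19.7 and 1.07 CPM, or 18.4-fold (15.3 to 22.4). The Ifit genes, whose products bind RNA that lacks the host's cap marks, lay closer together. Ifit1 was at 7.85, 8.38, 14.1 and 4.23 CPM, a ratio of 3.34 (3.0 to 3.72) to WT/PBS, and both Pdgfrb-TK libraries lay between the libraries of the WT hosts. Ifit3 was at 8.02, 14.3, 11.2 and 3.83 CPM, highest in Pdgfrb-TK/PBS. Ifit2 (3.86 CPM against 1.64 CPM, log2 ratio 0.88) and Oas1a (0.678 CPM against 0.0725 CPM, 0.65) did not reach the limit. Against Pdgfrb-TK/PBS in place of WT/PBS, 3 of the type I genes were higher with D-CAN and all 15 GTPases were. The share of all genes in that comparison was not computed.

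Among the other antiviral genes 12 of 13 were higher and 1 was lower in KPC tumor cells, with a median log2 ratio of 1.77. AW112010, annotated as a long noncoding RNA, had the most UMIs of the 41 genes in D-CAN tumor cells, at 29.1, 57.1, 243 and 17.9 CPM (ratio 13.6, 13.0 to 14.2). Zbp1, a sensor of Z-form nucleic acid that can start necroptosis, was at 3.96, 1.69, 25.3 and 1.24 CPM, or 20.3-fold (17.1 to 24.3). Parp14 and Dtx3l, an ADP-ribosyltransferase and a ubiquitin ligase encoded near each other on chromosome 16, had log2 ratios of 3.39 and 2.22. Bst2 (tetherin, which holds budding virus at the membrane) was at 54.7, 47.2, 176 and 33.1 CPM, a ratio of 5.31 (5.13 to 5.51). Rsad2 (viperin), which makes a chain-terminating nucleotide, went the other way. It was at 0.522, 0.893, 0.248 and 2.32 CPM, 9.37-fold lower with D-CAN than with PBS (6.11 to 15.1), on 23 against 256 UMIs.

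Of the 5 regulators 4 were higher in KPC tumor cells. Irf1, the transcription factor induced early by IFN-gamma, was at 22.1, 17.9, 73.0 and 19.5 CPM, a ratio of 3.75 (3.57 to 3.94). Socs1, which shuts off the receptor's kinases, was at 3.25, 1.77, 16 and 4.79 CPM, a ratio of 3.34 (3.02 to 3.69). Irf9, the DNA-binding part of the type I complex, was at 12.7, 13.4, 27.0 and 6.34 CPM. Stat2 had a plain CPM ratio of 2.01 (26.4 CPM against 13.1 CPM), which with 1 CPM added to each came to a log2 ratio of 0.96 and so was not counted. In all, 37 of the 41 genes were higher and 1 was lower.

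Macrophage markers in the tumor cell class differed little between these libraries. The 8 macrophage markers summed to 16.1 CPM in KPC tumor cells with D-CAN, which is 0.127% of their level in macrophages, and to 17.8 CPM with PBS (0.262%). Cells with at least 2 markers of a host class, together at 8 UMIs per 10000 or more, were kept out of the tumor cell class. The low sums follow in part from that rule, so they do not measure how much macrophage RNA these cells held. Relative to the macrophage level, the genes of D-CAN tumor cells varied widely within each group. The GTPases ranged from 5.90% (Gbp8) to 313% (Tgtp1), with Iigp1 at 114%, Igtp at 130.3% and Irgm1 at 153%. The type I genes ranged from 3.25% (Oas1a) to 257% (Ifit3), with Isg15 at 27.4%, and Rsad2 stood at 0.484%. The 8 T-cell markers summed to 7.50 CPM in KPC tumor cells with D-CAN and 3.09 CPM with PBS. The part of that RNA in the levels of AW112010, which T cells of D-CAN hold at 1357 CPM, was not tested.

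**Figure D2:**
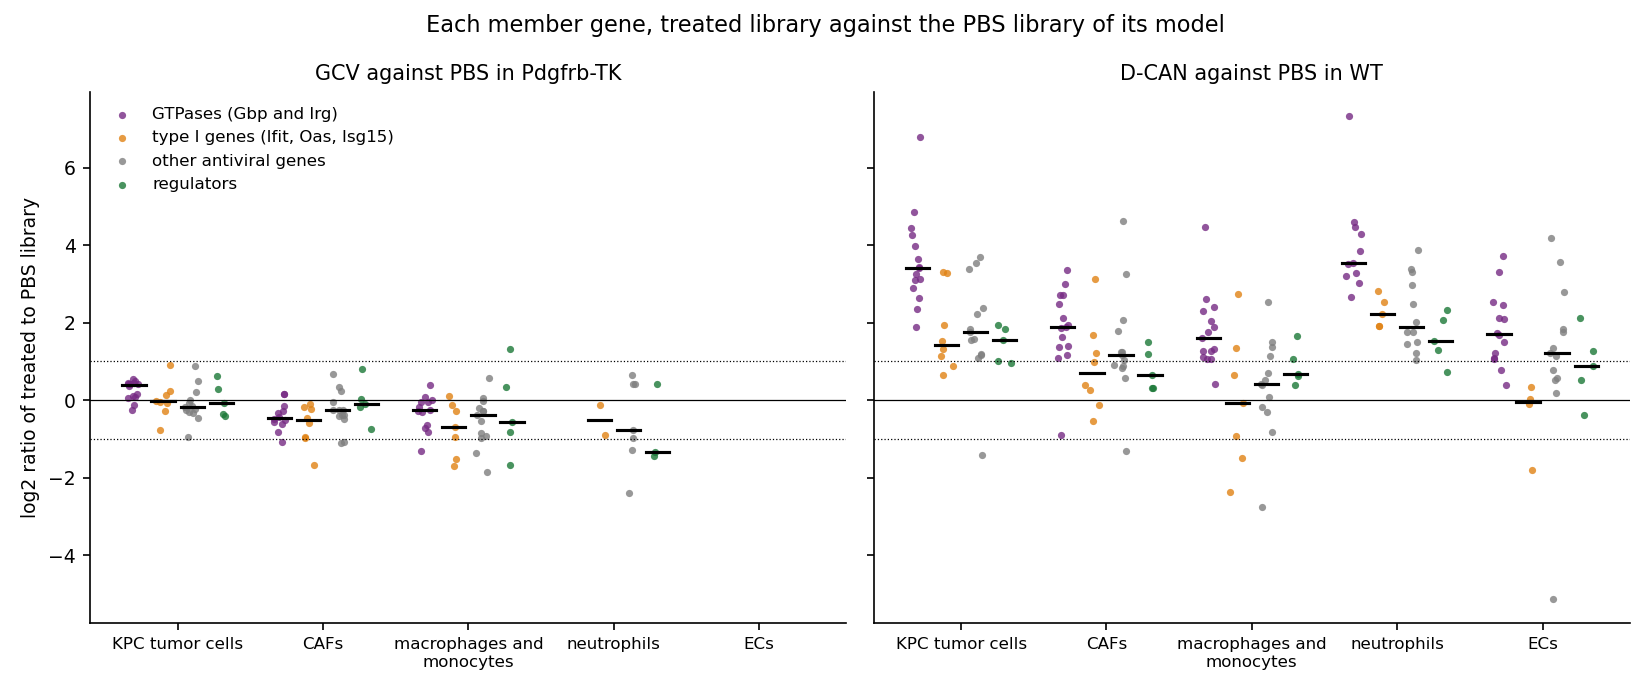
Each gene's log2 ratio of CPM + 1 by class, with Pdgfrb-TK/GCV against Pdgfrb-TK/PBS on the left and D-CAN against WT/PBS on the right. Points are genes with at least 20 UMIs, colors are the 4 groups, short bars are group medians and dotted lines mark a log2 ratio of 1 in either direction. On the right the GTPases of KPC tumor cells all lie above the upper line (median 3.42), and on the left no gene of KPC tumor cells leaves the lines.

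In macrophages and monocytes the GTPases were mostly higher than in WT/PBS, while the type I genes had no common direction. With D-CAN 14 of 15 GTPases were higher (median log2 ratio 1.60, all genes 0.22), but of 7 type I genes with enough UMIs 2 were higher and 2 lower (median -0.08). Over all genes of this class 12.9% were higher and 4.38% lower. Against Pdgfrb-TK/PBS both sums were higher with D-CAN, at 728 and 254 CPM for the GTPases and 245 and 128 CPM for the type I genes. Iigp1 was again the leading GTPase, at 1.31, 4.68, 123 and 4.62 CPM (ratio 26.6, 18.8 to 38.9). Gbp8 was at 45.2, 44.8, 83.5 and 14.9 CPM, a ratio of 5.62 (4.56 to 6.99). Gbp7, which had the most UMIs of the group, was at 68.6, 81.7, 113 and 46.0 CPM, a ratio of 2.46 (2.16 to 2.81). WT/PBS was the lowest library for both Gbp8 and Gbp7. Gbp5, which takes part in inflammasome assembly, was within the limit, with 54.7 CPM against 41.1 CPM.

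The type I genes that were lower in macrophages were Ifit1 and Ifit2, joined by the antiviral gene Rsad2. Ifit1 was at 11.3, 12.5, 13.6 and 75 CPM, which is 5.49-fold lower with D-CAN (4.39 to 6.94). Ifit2 was at 14.0, 23.4, 19.8 and 57.3 CPM, 2.90-fold lower (2.37 to 3.55). Rsad2 was at 35.9, 36.4, 51.1 and 353 CPM, 6.91-fold lower (6.17 to 7.76). In all 3 genes WT/PBS alone was high and D-CAN lay near both Pdgfrb-TK libraries, and against Pdgfrb-TK/PBS in place of WT/PBS the log2 ratio was 0.12 for Ifit1 and 0.48 for Rsad2. Of the Oas genes, 2 were higher instead. Oas2 was at 2.84, 11.5, 16.9 and 1.68 CPM, 10.1-fold higher with D-CAN (5.55 to 20.1), and Oas1a was at 7.59, 9.37, 20.8 and 7.57 CPM, 2.75-fold higher (2.0 to 3.84). Isg15, the type I gene with the most UMIs here, was at 31.2, 28.6, 131 and 139 CPM, so that both libraries of the WT hosts were high and differed little (ratio 0.944, 0.860 to 1.03).

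Of the other antiviral genes of macrophages 4 of 13 were higher and 1 was lower, and of the regulators 2 of 5 were higher. Zbp1 was at 17.8, 17.2, 65.5 and 10.5 CPM, a ratio of 6.23 (4.87 to 8.08). Ifi27l2a, a small interferon-induced protein of the Ifi27 family, was at 90.7, 333, 358 and 127 CPM, so that D-CAN was 2.83-fold above WT/PBS (2.62 to 3.06) and level with Pdgfrb-TK/PBS. Irf1 was at 72.4, 28.1, 150.4 and 46.9 CPM, a ratio of 3.20 (2.83 to 3.64). Markers of KPC cells summed to 557 CPM in the macrophages of D-CAN and 739 CPM in those of WT/PBS (9.81% and 9.44% of their own level).

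**Figure D3:**
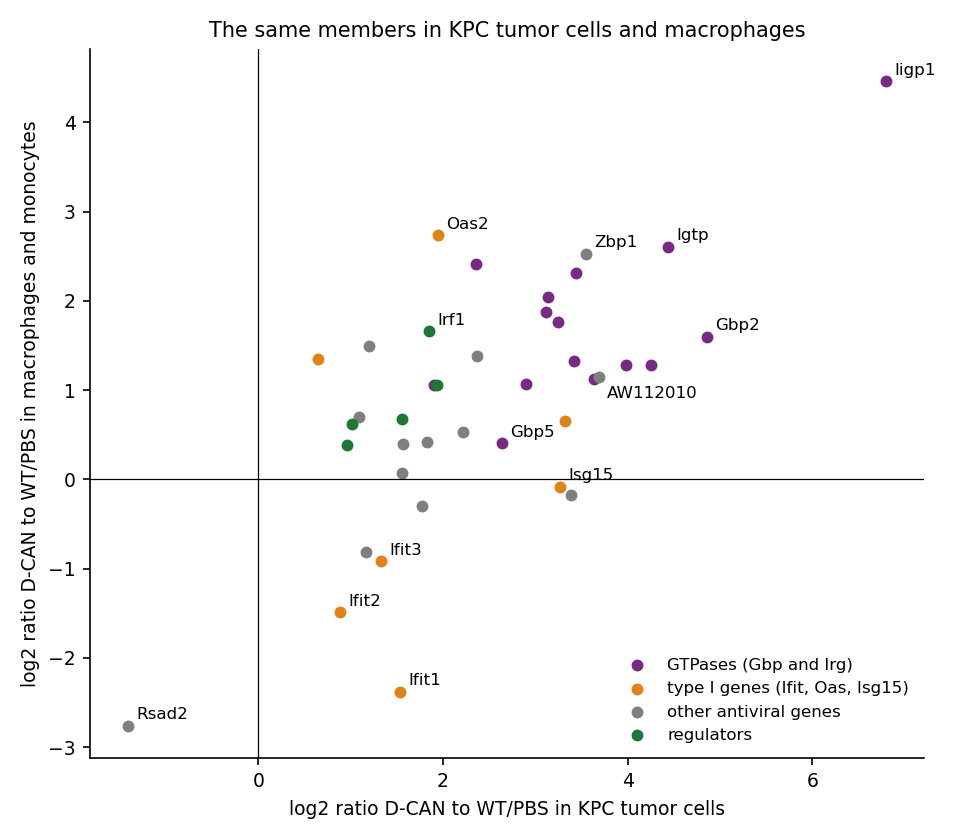
Log2 ratio of D-CAN to WT/PBS in KPC tumor cells (horizontal) and in macrophages and monocytes (vertical), 1 point per gene, colored by group. GTPases lie in the upper right, Iigp1 farthest out (6.80 and 4.46), whereas Ifit1 (1.53 and -2.38) lies below the horizontal line and Rsad2 (-1.41 and -2.76) is negative in both classes.

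In CAFs 14 of 15 GTPases were higher with D-CAN, none was lower, and the median log2 ratio was 1.90 (all genes 0.12). Over all genes 11.4% were higher and 6.46% lower. On the log2 scale of CPM + 1 the gene farthest out was not a GTPase but Ifi27l2a (4.62), at 35.0, 49.2, 276 and 10.2 CPM, a plain ratio of 27.0 (23.7 to 30.8). The plain ratio was larger for Gbp4, on 105 against 4 UMIs (49.6, 18.8 to 185), and for Oas2. Iigp1 was at 29.2, 41.3, 168 and 15.6 CPM, a ratio of 10.8 (9.69 to 12.1). Both genes were higher in D-CAN than in any other library. Igtp was at 9.21, 8.16, 21.9 and 2.49 CPM, or 8.80-fold (6.62 to 11.9). Gbp5 departed from the rest, at 1.84, 5.06, 7.96 and 15.7 CPM, with a log2 ratio of -0.90. Of the type I genes 3 of 8 were higher in CAFs, namely Oas2, Oasl2 and Oas1a. Oas2 had 125 UMIs against 6, a ratio of 39.3 (17.6 to 109). Isg15 was at 37.1, 42.2, 91.3 and 45.5 CPM (log2 ratio 0.99) and Ifit1 at 22.1, 25.9, 17.8 and 26.1 CPM (-0.53), neither past the limit. Of the other antiviral genes 8 of 13 were higher and Rsad2 was lower, at 4.94 CPM against 13.6 CPM. Irf7 (20.2 CPM against 8.30 CPM) and Irf9 (23.8 CPM against 7.84 CPM) were the 2 regulators past the limit, while Irf1 was at 68.1 CPM against 54.2 CPM. Markers of KPC cells in the CAF class summed to 501 CPM with D-CAN and 1468 CPM with PBS, and their part in these ratios was not tested. Against Pdgfrb-TK/PBS the counts in CAFs were 9 GTPases and 1 type I gene, and the share of all genes in that comparison was not computed.

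Neutrophils held few UMIs of these genes, and the genes counted were nearly all higher with D-CAN. Of the 33 genes with enough UMIs 32 were higher with D-CAN and none was lower, against 12.6% and 8.76% of all genes. All 11 GTPases counted were higher, with a median log2 ratio of 3.55 (all genes 0.04). The 15 GTPases held 1365 UMIs with D-CAN and 62 in WT/PBS, where none reached 20 UMIs and Gbp5 had the most (16). A GTPase could thus be counted only with the help of its D-CAN UMIs. The direction of those counted was therefore largely set by that limit. Most of the other genes counted also had under 20 UMIs in WT/PBS, so the 32 of 33 was largely set by it too. Iigp1 had 274 UMIs with D-CAN (160.0 CPM) and 0 in each of the other 3 libraries, which makes it at least 77.3-fold higher than in WT/PBS when 3 UMIs are taken as the limit that a count of 0 allows. Gbp4 had 40 UMIs with D-CAN and likewise 0 in the others, at least 11.3-fold. Gbp2 was at 11.6, 16.2, 203 and 8.29 CPM, a ratio of 24.5 (13.8 to 47.8). All 5 type I genes counted were higher, but of the type I genes only Isg15 and Oasl2 (37 UMIs each) reached 20 UMIs in WT/PBS. Isg15 was at 24.9, 46.9, 123 and 25.5 CPM, a ratio of 4.82 (3.39 to 7.04). Oasl2 was at 111, 121, 154 and 25.5 CPM, so that WT/PBS was the low library and the other 3 lay close together. Against Pdgfrb-TK/PBS 2 type I genes and all 11 GTPases were counted as higher in neutrophils. The same limit applies there, as Pdgfrb-TK/PBS neutrophils held 41 GTPase UMIs in all, and the share of all genes in that comparison was not computed. Irf1 had the most UMIs of the regulators, at 91.1, 68.6, 244 and 47.6 CPM, or 5.12-fold (3.96 to 6.71). Macrophage markers in neutrophils summed to 1603 CPM with D-CAN (12.7% of the macrophage level) and 646 CPM with PBS (9.5%), and their part in these ratios was not tested. The Iigp1 level of D-CAN neutrophils, 160.0 CPM, was above the 123 CPM of D-CAN macrophages.

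In ECs the GTPases reached their highest summed level of any compared class, 1304 CPM with D-CAN against 322 CPM in WT/PBS and 161 CPM in Pdgfrb-TK/PBS, on 95, 389 and 138 cells. Of 14 GTPases counted 12 were higher and none lower (median log2 ratio 1.70, all genes 0.20), against 14.7% of all genes higher and 5.88% lower. Iigp1 was at 464 CPM with D-CAN, 34.0 CPM in WT/PBS and 47.4 CPM in Pdgfrb-TK/PBS, a ratio of 13.7 (10.9 to 17.2) to WT/PBS. Gbp6 was at 60.5 CPM against 5.20 CPM, or 11.6-fold (6.43 to 22.3), with 0 UMIs in Pdgfrb-TK/PBS. None of the 4 type I genes counted was higher and 1 was lower, Ifit1, at 18.2 CPM with D-CAN, 65.8 CPM in WT/PBS and 8.25 CPM in Pdgfrb-TK/PBS. Isg15 was at 69.0, 73.8 and 16.5 CPM in the same order. Rsad2 had 3 UMIs with D-CAN and 463 in WT/PBS (3.63 CPM and 160.4 CPM), a ratio of 44.2 (15 to 215) in favor of PBS, and stood at 20.6 CPM in Pdgfrb-TK/PBS. Zbp1 had 30 UMIs against 3, a ratio of 34.9 (10.9 to 179), and Bst2 was at 362 CPM against 99.4 CPM, 3.64-fold (3.09 to 4.29). T-cell markers in ECs summed to 50.8 CPM with D-CAN and 4.85 CPM with PBS, and their part in these ratios was not tested.

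To see whether the D-CAN levels came from a few tumor cells, each cell was thinned to 2000 UMIs so that depth was equal. Of the KPC tumor cells deep enough, 28.8% then held a GTPase UMI in D-CAN (3007 cells) against 2.68% in WT/PBS (4918 cells). In the Pdgfrb-TK model the shares were 5.08% with GCV (5646 cells) and 4.50% with PBS (6060 cells). Without thinning, when the median depth was 24200.0 UMIs in D-CAN and 8800.0 to 14996 UMIs in the others, the share was 71.5% in D-CAN and 16.6% to 23.7% in the others. UMIs of at least 2 different GTPases stood in 13.3% of thinned cells in D-CAN and in 0.183% to 0.567% in the other libraries. The abundant macrophage gene Lyz2 is itself among the markers used to leave host cells out. It was found in 1.0% of thinned D-CAN tumor cells with at least 2 GTPases and in 1.17% of those with none. The tenth of D-CAN tumor cells with the most GTPase UMIs for their depth held 68.8% of all GTPase UMIs of the class. In the other libraries, where far fewer cells held any, that share was 62.7% to 74.7%.

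**Figure D4:**
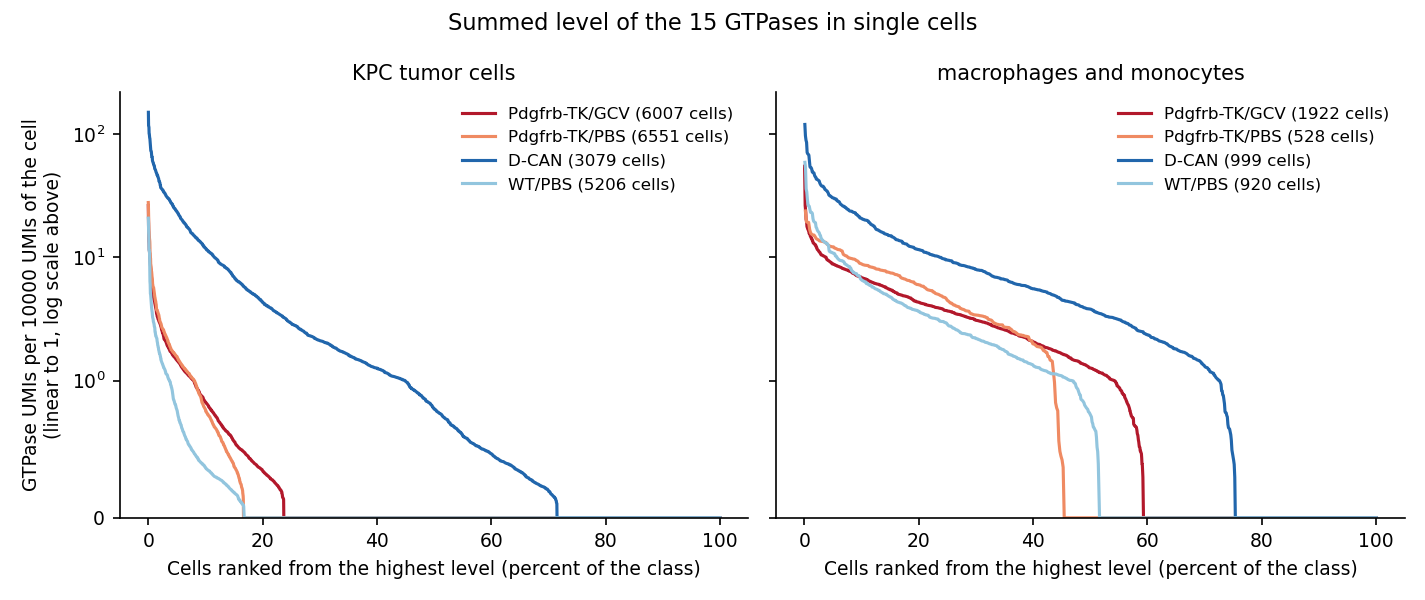
GTPase UMIs per 10000 UMIs of each cell, cells ranked from the highest, in KPC tumor cells (left) and macrophages or monocytes (right), 1 line per library; the vertical axis is linear to 1 and logarithmic above. The D-CAN line of KPC tumor cells has a median of 0.795 and a 90th percentile of 11.9, while the median of the other 3 is 0.

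D-CAN was also the highest library within tumor cell clusters made without regard to library. In the 8 clusters with KPC cells of D-CAN listed, the GTPase sum ranged from 243 to 689 CPM, and in the same clusters of WT/PBS it ranged from 8.93 to 15.1 CPM. One of the 8 clusters was left without a name and had a median of 47.1% mitochondrial UMIs, and its tumor cells held 292 CPM of GTPases in D-CAN (215 cells) and 8.93 CPM in WT/PBS (297 cells). Cells with at least 2 GTPases made up 6.59% to 22% of each of these clusters in D-CAN. In macrophages 57.1% of thinned cells held a GTPase UMI in D-CAN, compared with 26.8% in WT/PBS and 32.4% (GCV) and 35.7% (PBS) in the Pdgfrb-TK model.

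Within the D-CAN library, 399 tumor cells held at least 2 GTPases after thinning and 2140 held none, with median depths of 26869 and 24338 UMIs before thinning. AW112010 was found in 52.4% of the first and 16.4% of the second, Irf1 in 26.6% and 6.68%, Parp14 in 22.1% and 2.43%, and Socs1 in 11.3% and 0.654%. Type I genes were also more frequent in the first set, with Isg15 in 14.8% and 2.90% and Ifit1 in 6.52% and 0.935%. The receptors differed little, with Ifngr1 in 24.8% and 19.6% and Ifnar1 in 7.52% and 6.36%, and so did the tumor cell marker Krt8, in 93.5% and 88.8%. Lyz2 was in 1.0% and 1.17%. These cells share 1 library, so the shares describe that library alone.

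In KPC tumor cells of the Pdgfrb-TK model none of the 40 genes counted was higher or lower with GCV on the scale of CPM + 1, while 3.42% of all genes were higher and 1.36% lower. The median log2 ratio was 0.39 for the 14 GTPases counted and -0.02 for the type I genes, against 0.10 for all genes. AW112010 was farthest out, at 29.1 CPM with GCV and 57.1 CPM with PBS (log2 ratio -0.95). It was followed by Isg15 at 11.4 and 5.53 CPM (0.92), Zbp1 at 3.96 and 1.69 CPM (0.88) and Ifit3 at 8.02 and 14.3 CPM (-0.76). The plain CPM ratios of Isg15 and Zbp1 were 2.05 (1.83 to 2.31) and 2.34 (1.91 to 2.90). GTPase sums were 26.6 and 23.2 CPM. Adding 1 CPM hides ratios of genes far below that level. Gbp4 was at 0.348 CPM (34 UMIs) with GCV and 0.0137 CPM (1 UMI) with PBS, a plain ratio of 25.3 (4.25 to 1029.5), and Gbp6 had 41 against 3 UMIs (10.2, 3.25 to 51.4). Gbp8 and Gbp9 had plain ratios of 2.98 (1.70 to 5.52) and 3.04 (1.59 to 6.28). With 0.1 CPM added in place of 1, 4 GTPases and 1 type I gene were counted as higher, and against WT/PBS 3 GTPases and 3 type I genes were. The share of all genes was not computed for either setting, so these counts cannot be set against it. Macrophage markers in KPC tumor cells summed to 71.6 CPM with GCV and 27.1 CPM with PBS (0.775% and 0.282% of the macrophage level), and 2224 of 6007 and 5124 of 6551 tumor cells held no UMI of them. In those cells alone the median log2 ratio of the GTPases was 0.36 and no GTPase was counted as higher, while 1 type I gene was (share of all genes not computed).

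In macrophages 1 gene was higher and 6 were lower with GCV among the 38 counted, against 5.48% and 2.97% of all genes. Irf1 was the gene that was higher, at 72.4 CPM with GCV and 28.1 CPM with PBS, a ratio of 2.57 (1.96 to 3.45). Ifi27l2a was 3.67-fold lower (3.33 to 4.04), at 90.7 CPM against 333 CPM. Irf7, which amplifies type I interferon, was at 7.51 CPM against 26.0 CPM, or 3.46-fold lower (2.42 to 4.90). Oas2 (2.84 CPM against 11.5 CPM), Ifit3 (4.81 against 15.6 CPM), Xaf1 (9.99 against 27.1 CPM) and Iigp1 (18 against 9 UMIs, 1.31 against 4.68 CPM) were the others that were lower. For Oas2, WT/PBS stood at 1.68 CPM, and the log2 ratio of GCV to that library was 0.52. The GTPase sums were 219 and 254 CPM.

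In CAFs none of the 38 genes counted was higher with GCV and 4 were lower, against 3.05% and 5.61% of all genes. They were Ifit3 (6.58 CPM against 23.1 CPM, 3.51-fold, 2.22 to 5.73), Usp18 (5.26 against 12.4 CPM), Gbp5 (7 against 18 UMIs) and Rnf213 (42.1 against 90 CPM). Usp18 removes Isg15 from proteins, and Rnf213 is a large ubiquitin ligase. In WT/PBS Usp18 was at 3.54 CPM and Rnf213 at 28.9 CPM, and the log2 ratios of GCV to that library were 0.46 and 0.53, so the direction of both turned with the PBS library used. In neutrophils none of 12 genes was higher and 4 were lower, against 4.91% and 4.92% of all genes. Rsad2 was at 44.7 CPM with GCV and 239.9 CPM with PBS, 5.36-fold lower (3.53 to 8.44). Pdgfrb-TK/PBS was the only high library for it, as D-CAN held 92.9 CPM of it and WT/PBS 44.2 CPM, and the log2 ratio of GCV to WT/PBS was 0.02. Stat2, Irf9 and Parp14 rested on 6 to 30 UMIs per library. No GTPase had enough UMIs in neutrophils of this model, which held 27 and 41 GTPase UMIs in all.

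The ligands and receptors were read from lists of the pathway. Ifng, the IFN-gamma gene, had 11, 3, 566 and 16 UMIs over all cells, and 466 of those in D-CAN lay in T cells. There were 131, 48, 566 and 43 T cells in the 4 libraries, and T cells held 3, 3, 466 and 3 Ifng UMIs. Those T cells held 289851, 62220, 2500204 and 114753 UMIs of all genes, so the Ifng counts are not at equal depth. Counts of 3 UMIs are also too few to give a level. Cells in no class held 8, 0, 67 and 10 Ifng UMIs. Ifnb1, the type I interferon of fibroblasts and macrophages, had 28, 7, 36 and 99 UMIs. WT/PBS was the highest library for Ifnb1, with 57 of its UMIs in macrophages and 23 in CAFs, whereas 23 of the 36 in D-CAN lay in dendritic cells. Ifna1, Ifna4, Ifnl2 and Ifnl3 had no UMI in any library, and Ifna2 had 3, all in WT/PBS macrophages.

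The receptor genes differed little. In KPC tumor cells Ifngr1 was at 95.1, 121, 121 and 115 CPM and Ifnar1 at 29.7, 27.6, 32.4 and 25.4 CPM. Ifngr1, Ifngr2, Ifnar1 and Ifnar2 were within the limit between D-CAN and WT/PBS in all 5 classes. In neutrophils 3 of the 10 receptor, kinase and STAT genes were higher with D-CAN, against 12.6% of all genes. Among them were Jak2 (398 CPM against 120.1 CPM) and Jak1 (576 against 259.6 CPM), the kinases of the IFN-gamma receptor. Of the same 10 genes 1 was lower, with a log2 ratio of -2.15, against 8.76% of all genes.

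Interferon-induced genes outside the 41 were read in the same way. Of the 17 of them counted in KPC tumor cells, 8 were higher with D-CAN and none was lower, where 7.06% of all genes were higher and 2.02% lower. Cxcl9, a T-cell attractant induced by IFN-gamma, was at 0.205, 0.0137, 32.0 and 1.09 CPM there, a ratio of 29.4 (24.5 to 35.6). Cxcl10, which answers to both kinds of interferon, was within the limit, at 48.0 CPM against 27.6 CPM. In macrophages 2 of 16 were higher, near the 12.9% of all genes in this class, and 2 were lower (4.38% of all genes). Cxcl9 was at 1.90, 1.04, 378 and 14.7 CPM in macrophages (ratio 25.7, 21.1 to 31.5), while Cmpk2, the neighbor of Rsad2, was at 3.30 CPM against 23.8 CPM.

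The PBS libraries of the models also differed from each other. They are 1 library each and differ in host genotype too, so they do not measure the spread between replicates. Between Pdgfrb-TK/PBS and WT/PBS, Iigp1 of KPC tumor cells was at 0.384 and 0.272 CPM and Gbp2 at 2.29 and 2.23 CPM. In macrophages Rsad2 was at 36.4 and 353 CPM, Ifit1 at 12.5 and 75 CPM, and Isg15 at 28.6 and 139 CPM. The GTPase sum of KPC tumor cells was 23.2 and 14.0 CPM, a difference far smaller than that between D-CAN and either of them, whereas the macrophage differences in Rsad2 and Ifit1 between PBS libraries were as large as those between D-CAN and WT/PBS. GTPases also differed between the PBS libraries in other classes. In CAFs Iigp1 was at 41.3 CPM in Pdgfrb-TK/PBS and 15.6 CPM in WT/PBS, Gbp8 at 5.06 and 1.10 CPM and Gbp5 at 5.06 and 15.7 CPM, and the GTPase sum was 160.0 and 95.5 CPM. In ECs Gbp2 had 0 UMIs in Pdgfrb-TK/PBS and 210 in WT/PBS, Gbp5 had 0 and 107, and Gbp3 was at 4.13 and 21.8 CPM. The EC sum of GTPases in Pdgfrb-TK/PBS was 0.499 of that in WT/PBS. For Gbp5 in CAFs and for Gbp2 in ECs the PBS libraries differed from each other by more than D-CAN did from WT/PBS.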

How the data were processed

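Single-cell RNA-seq of 4 pooled tumor suspensions was analysed, 1 library per condition. The authors deposited filtered 10x matrices of whole-number UMI counts per gene and cell, not normalized. The headers name Cell Ranger 7.0.0, while the methods give an earlier version, and the submitters' processing notes name STAR 2.6 and mm10. The libraries of WT hosts list 5 extra reporter features, which were left out of totals.

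Cells with at least 200 genes were kept and put into classes by fixed marker genes (at least 3 markers, 2 for lymphocytes and for KPC tumor cells). Leiden clusters (scanpy 1.11.5, 21 clusters) gave an alternative: 90.3% of KPC tumor cells and 64.1% of CAFs fell in a cluster of the same name. No doublet caller was run. Counts were summed per class and library and divided by the class total (CPM). Levels carry Poisson intervals (exact, 95%) and ratios exact binomial ones (scipy 1.17.1). Log2 ratios used CPM + 1. A gene was counted at 20 UMIs over both libraries and called at 2-fold. With 1 library per condition no test across conditions exists.

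The rule for naming genes took, per class and comparison, up to 10 of the 41 genes with the largest absolute log2 ratio among those with at least 50 UMIs. It also took the gene of each group with the most UMIs, and Ifng, Ifnb1 and the 4 receptor genes. Not all of these are given for every class. A gene that the rule also names is not reported here. Any other gene named was chosen after its values were seen. The 41 genes, groups and lists were chosen with earlier results of these data known.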

Additional observations from a re-analysis of the deposited data

Results flagged for a closer look

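Ifit1 and Rsad2 did not move the same way in all classes between D-CAN and WT/PBS, and the difference between classes was not tested. The log2 ratio of Ifit1 was 1.53 in KPC tumor cells and 1.91 in neutrophils but -2.38 in macrophages and -1.80 in ECs. The log2 ratio of Rsad2 was 1.05 in neutrophils but -1.41 in KPC tumor cells, -1.30 in CAFs, -2.76 in macrophages and -5.12 in ECs.

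The reporter features that stand outside the mouse genes held 1284 UMIs with D-CAN, while WT/PBS held 3856, and the other libraries do not list them.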

How the results depend on the processing

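Over the counts of GTPases and type I genes in KPC tumor cells, macrophages and CAFs, 132 of 148 values under other settings were equal or stayed within 1.5 times, and 16 moved. The counts higher with GCV were all 0 in the main setting, so for them only a further 0 was taken as unchanged. Of the log2 ratios of single genes named by the rule, 882 values stayed within the counting interval, 364 moved outside it and 7 reversed. That interval is of the plain ratio, so for genes at low CPM it need not hold the main log2 ratio either. All 15 GTPases of KPC tumor cells remained higher with D-CAN without cells above 20% mitochondrial UMIs, with classes from Leiden clusters, against Pdgfrb-TK/PBS, and (chosen after the data were seen) in KPC cells with no macrophage-marker UMI. With the PBS libraries exchanged between the models, the counts higher with GCV became 3 GTPases and 3 type I genes in KPC tumor cells, 1 GTPase in macrophages, and 3 GTPases and 1 type I gene in CAFs, all from 0. With D-CAN that setting gave 3 type I genes in KPC tumor cells, and 9 GTPases and 1 type I gene in CAFs. It also turned the direction with GCV of Oas2 in macrophages (0.52), Rnf213 (0.53) and Usp18 (0.46) in CAFs, Rsad2 (0.02) and the regulators' median (0.67) in neutrophils, and with D-CAN of Ifit1 (0.12) and Rsad2 (0.48) in macrophages and Rnf213 in neutrophils (-0.06). A pseudocount of 0.1 CPM gave 4 GTPases and 1 type I gene higher with GCV in KPC tumor cells. A pseudocount of 5 CPM gave, with D-CAN, 3 type I genes in KPC tumor cells and 9 GTPases in macrophages and in CAFs. Thinning each cell to 2000 UMIs gave 1 type I gene in macrophages and 8 GTPases in CAFs with D-CAN. KPC tumor cells with no macrophage-marker UMI gave 1 type I gene with GCV. Without cells carrying markers of a second class the regulators' median in neutrophils with GCV was 0.32. The share of all genes was not computed under these other settings, so their counts have none beside them. The causes were not tested.

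No paired analysis was possible because each condition is 1 library and no result comes from a test. There was no replicate to leave out. Depth limits the neutrophils and ECs most, where many genes had under 20 UMIs.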

Other observations

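Cell classes left out of the comparisons, most of them small, held the genes at different levels. In T cells the GTPase sum was 404 CPM in D-CAN (566 cells), 192 CPM in WT/PBS (43 cells) and, in the Pdgfrb-TK model, 269 CPM with GCV (131 cells) and 305 CPM with PBS (48 cells), a narrower range than in KPC tumor cells. Iigp1 stood at 23.6 CPM in the T cells of D-CAN, on 59 UMIs, and AW112010 at 1357 CPM, on 3394 UMIs. In pericytes by the marker rule the GTPase sum was 460.2 CPM in D-CAN (32 cells) and 85.9 CPM in WT/PBS (88 cells), with Iigp1 at 211 and 9.33 CPM. The alternative by clusters was wider, with 1618 cells over all libraries in a cluster named for pericytes. The B cells held 68.2, 99.1 and 180.2 CPM of GTPases in Pdgfrb-TK/GCV (381 cells), Pdgfrb-TK/PBS (98) and D-CAN (109), and the 154 acinar cells of D-CAN held 339.6 CPM. Dendritic cells went the other way, on very few cells in WT/PBS. Their GTPase sum was 303 CPM in D-CAN (58 cells, 99 UMIs) and 1362 CPM in WT/PBS (4 cells, 54 UMIs). Their type I sum was 162 CPM and 1614 CPM.

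Genes induced by NF-kB were listed as a contrast. None of the 8 was counted as higher with D-CAN in any of the 5 classes. Of all genes 7.06% to 14.7% were higher by class, so for 8 genes this lies near the share of all genes. In neutrophils 7 of the 8 had a log2 ratio above 0, with a median of 0.43. In CAFs 1 of the 8 was lower, where 6.46% of all genes were, and in ECs 4 were lower, where 5.88% of all genes were. Icam1 of ECs was at 81.1 CPM against 412 CPM in WT/PBS, 5.08-fold lower (3.97 to 6.59), and Nfkbia at 294 against 734 CPM. WT/PBS was the high library in ECs. Pdgfrb-TK/PBS was lower than D-CAN, with Icam1 at 20.6 CPM and Nfkbia at 124 CPM, and the 8 genes summed to 386 CPM there, 816 CPM with D-CAN, and 1826 CPM in WT/PBS. In KPC tumor cells their median log2 ratio was 0.03.

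Genes of antigen presentation were more frequent in the D-CAN tumor cells with at least 2 GTPases than in those with none, each cell thinned to 2000 UMIs. H2-K1 was in 69.7% and 31.7%, Tap1 in 13.0% and 1.54%, Psmb9 in 16.3% and 3.55%, and Cd74 in 20.3% and 6.73%. Nfkbia was in 20.1% and 16.6%, and Lyz2 in 1.0% and 1.17%.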
